A study of Mus musculus with 9 samples.

Results

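The stretch of mouse chromosome 7 from 55.25 to 100 Mb, in the coordinates of the files, was examined for contacts with the Dbp locus. It is defined by its position and held 6876 of the 384942 probes of each array, in 443 of 24953 windows of 100 kb and 44 of 2536 windows of 1 Mb. It begins 10 Mb and ends 54.75 Mb beyond the viewpoint, taken as the centre of the 100 kb window from 45200001 to 45300000. That window was the peak of a running mean of the signal over 11 neighbouring windows, averaged over all arrays. The assay was 4C (chromosome conformation capture-on-chip), in which DNA ligated to a viewpoint is amplified and hybridized against genomic DNA of the same cells. All cells were primary mouse embryonic fibroblasts. Their clocks were synchronized by a 2 h dexamethasone treatment, and the cells were harvested at the circadian times given below.

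There were 2 arrays of Bmal1-/- cells, at circadian time (CT) 22 and 34 h. Wild-type (WT) line 1, from siblings of the Bmal1-/- cells and sharing their culture medium, had 5 arrays, at CT22, 26, 30, 34 and 46 h. WT line 2, from another cross, had 2 arrays labelled CT22 and CT34, whose array names carry 24 and 36 instead. Cross, line and any difference in culture medium cannot be told apart in comparisons with line 2. Each time of a line was 1 array, and genotype was represented by 1 line of Bmal1-/- cells, so genotype and line cannot be told apart. The spread of line 1 runs over 5 times and holds both time and technical variation.

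Dbp is a clock-controlled gene for a transcription factor, and Bmal1 (Arntl) codes for an activator at the core of the circadian clock. On mammalian chromosomes, active and inactive chromatin tend to gather in separate compartments, and a viewpoint usually contacts distant regions of its own compartment more often than the stretches between them. A 4C profile far from its viewpoint therefore often alternates between blocks of high and low signal. The sources used here do not give the genome build of the files, so no gene or sequence was assigned to a window.

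Each probe has a log2 ratio of its 4C signal to its genomic signal, here centred on the array's median. The arrays differed in scale. Over all probes the SD was 0.92 and 1.10 in Bmal1-/-, 0.825 to 0.929 in line 1 and 0.391 and 0.411 in line 2. Each window mean was therefore also given as a percentile among all windows of its own array, where 50 is the typical window of the genome. A probe was called high above the 95th percentile of the probes off chromosome 7 of its array. How precise any value is depends on the few arrays.

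The segment lay well above the genome in every array. Its mean log2 ratio was 1.30 and 1.61 in Bmal1-/-, between 1.10 and 1.27 in line 1, and 0.226 and 0.270 in line 2. High probes made up 30.5% and 32.1% of it in Bmal1-/-, 31.3% to 34.1% in line 1 and 13.5% and 15.7% in line 2. The share of high probes thus overlapped between Bmal1-/- and line 1, while both were above line 2. Of the 443 windows of 100 kb, 95 (21.4%) were in the top 5% of all 9 arrays, against 1.51% of all windows. Conversely, 1 window (0.226%), from 85400001 to 85500000, was under the median of all 9 arrays, against 8.28% of all windows. Probes were 5027 bp apart at the median, with a largest gap of 280389 bp between 59210934 and 59491323.

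To describe the alternation without using the arrays to be compared, the 44 windows of 1 Mb were ordered by their mean percentile in line 2. The lowest 15 are called low windows, the highest 15 contact windows, and the remaining 14 between windows. These are relative names: the highest low window had a percentile of 95.23 in line 2, just under the lowest between window at 95.37, and the contact windows began at 97.40, above a between window at 97.36. Runs of at least 2 neighbouring windows of a class gave 5 low blocks and 3 contact blocks. The low blocks were 59 to 61 Mb (166 probes), 68 to 70 Mb (342), 76 to 78 Mb (313), 85 to 89 Mb (548) and 93 to 97 Mb (643). The contact blocks were 64 to 68 Mb (644 probes), 79 to 85 Mb (937) and 97 to 100 Mb (478). The block from 59 to 61 Mb was thinly covered, with 83 probes per Mb, against 137 to 171 in the other blocks.

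**Figure D1:**
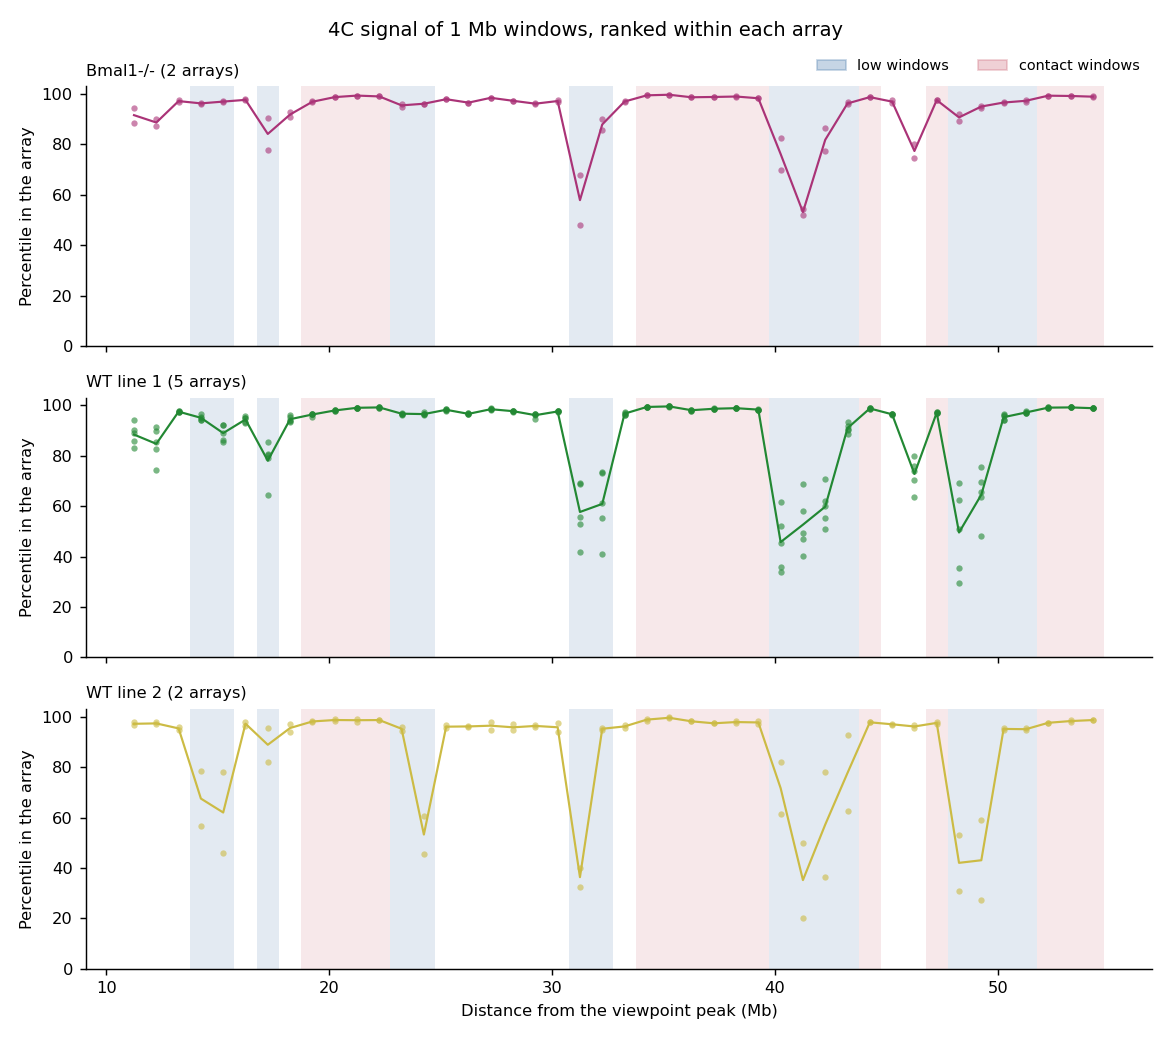
Percentile within the array (y axis) of each 1 Mb window against its distance from the viewpoint peak in Mb (x axis), in Bmal1-/- (2 arrays), WT line 1 (5 arrays) and WT line 2 (2 arrays). Points are arrays, lines are group means and shading marks low and contact windows as classed from line 2. Contact windows sit near the top in all lines, while the dips at low windows are shallower in Bmal1-/- than in line 1 at several positions.

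The contact blocks were near the top of the ranks in all lines, where percentiles leave little room to differ. Ranked among chromosome 7 windows alone, the contact windows together averaged 77.5 in Bmal1-/-, 73.9 in line 1 and 67.7 in line 2. From 79 to 85 Mb, the longest contact block, the mean percentile was 98.97 and 98.99 in Bmal1-/-, 98.76 to 98.84 in line 1, and 98.02 and 98.53 in line 2. From 64 to 68 Mb it was 98.53 and 98.47 in Bmal1-/-, 97.94 to 98.23 in line 1, and 98.48 and 98.58 in line 2. From 97 to 100 Mb it was 99.11 and 99.17 in Bmal1-/-, 98.97 to 99.11 in line 1, and 98.05 and 98.32 in line 2. Both Bmal1-/- arrays were thus above all 5 line 1 arrays in the blocks from 79 and from 64 Mb, by less than 1 percentile point, and the groups met in the block from 97 Mb. The mean share of high probes was lower in Bmal1-/- in all 3 contact blocks, with both arrays below line 1 in 1 of them. From 79 to 85 Mb it was 52.8% in both Bmal1-/- arrays, against 53.3% to 58.1% in line 1. From 97 to 100 Mb it was 55.0% and 56.9% in Bmal1-/-, against 56.5% to 63.2% in line 1. From 64 to 68 Mb the high probes made up 47.7% and 46.6% in Bmal1-/-, against 45.8% to 48.4% in line 1, so that the groups overlapped in both of these blocks.

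The 3 highest windows of the segment in line 2 are contact windows by definition. The window from 80000001 to 81000000 was the highest, at 99.66 and 99.70 in Bmal1-/-, 99.47 to 99.62 in line 1 and 99.43 and 99.74 in line 2. The window before it, from 79000001 to 80000000, had 99.39 and 99.51 in Bmal1-/-, 99.23 to 99.43 in line 1 and 98.48 and 99.23 in line 2. The window from 65000001 to 66000000 had 98.72 and 98.76 in Bmal1-/-, 97.73 to 98.13 in line 1 and 98.92 and 98.48 in line 2. It stood lower in line 1 than in either other line, and its mean log2 ratio was 2.19 in Bmal1-/- and 1.55 in line 1.

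The 6 largest steps between neighbouring runs of 5 windows of 100 kb were picked in line 2, so their size there is given by the choice. In 5 of the 6 all arrays of Bmal1-/- and line 1, which the choice did not use, had the same direction as line 2. One of these, at 80600000, lies inside the contact block from 79 Mb, and those at 56100000 and 90300000 border none of the 8 blocks. The largest of them in the other lines was at 90300000, where the mean log2 ratio after the step was lower by 2.16 in Bmal1-/- (2.73 before, 0.56 after), by 2.01 in line 1 (2.39 before, 0.37 after) and by 0.30 in line 2 (0.49 before, 0.18 after). At 63600000, the approach to the contact block from 64 Mb, the ratio was higher after the step by 1.08 in Bmal1-/-, 1.10 in line 1 and 0.44 in line 2. At 92700000, ahead of the low block from 93 Mb, it was lower by 1.14, 1.40 and 0.38 in the same 3 lines. The step at 61500000 was not shared: line 2 gained 0.36, while the step was -0.33 in Bmal1-/- and -0.39 in line 1.

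**Figure D2:**
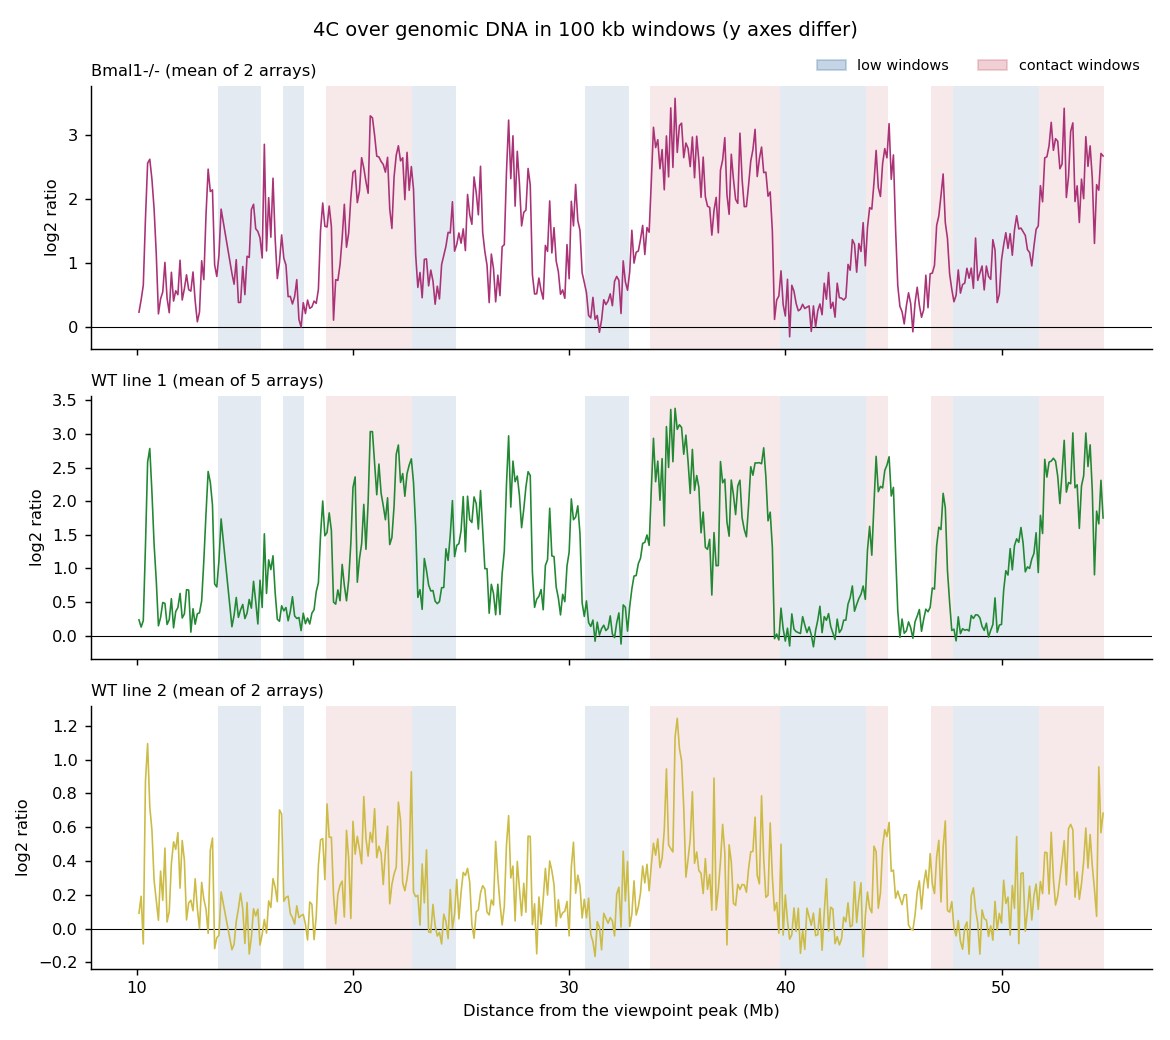
Mean log2 ratio of 4C over genomic DNA (y axis, with a different range in each panel) in windows of 100 kb against the distance from the viewpoint peak in Mb (x axis) for Bmal1-/- (2 arrays), WT line 1 (5 arrays) and WT line 2 (2 arrays). Shading marks the low and contact windows of 1 Mb. Line 1 runs near 0 at the start of the low blocks from 85 and from 93 Mb (39.75 and 47.75 Mb from the peak), where Bmal1-/- is mostly above it.

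The order of the windows was closer between Bmal1-/- and line 1 than between either and line 2. Over the 44 windows Spearman's rho between group means was 0.948 for Bmal1-/- and line 1, 0.796 for Bmal1-/- and line 2, and 0.785 for line 1 and line 2. These are descriptions, since neighbouring windows share chromatin and all arrays share probes. The low block from 68 to 70 Mb shows the difference: it had 95.54 and 96.04 in Bmal1-/-, 96.18 to 96.96 in line 1, and 70.1 and 78.4 in line 2. It was therefore low only by the line 2 arrays on which the classes were set, and there the Bmal1-/- arrays were below all line 1 arrays by less than 1 percentile point on average.

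In the low windows together, both Bmal1-/- arrays were above all 5 line 1 arrays. The mean percentile was 88.8 at CT22 and 84.7 at CT34 in Bmal1-/-, against 70.6, 78.5, 74.2, 77.3 and 76.0 at CT22, 26, 30, 34 and 46 h in line 1, and 66.5 and 69.0 in line 2. The Bmal1-/- mean of 86.8 ± 2.88 (SD, n = 2 arrays) was 11.5 percentile points above the line 1 mean of 75.3 ± 3.09 (SD, n = 5). With 2 against 5 arrays an exact permutation test cannot give a two-sided p below 0.0952, so the difference is given as a description. Contact windows averaged, with SDs over the same arrays, 98.8 ± 0.00929 in Bmal1-/-, 98.6 ± 0.0464 in line 1 and 98.2 ± 0.156 in line 2. The between windows averaged 94.4 ± 0.607 in Bmal1-/- and 93.6 ± 0.850 in line 1, and there the arrays overlapped. The gap between contact and low windows was 9.95 and 14.0 percentile points in Bmal1-/-, against 20.0 to 27.9 in line 1.

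The gap between the classes was measured on other scales too. On the log2 scale the low windows had mean ratios of 0.71 and 0.93 in Bmal1-/-, against 0.43 to 0.55 in line 1, without overlap. The contact windows had 2.09 and 2.46 in Bmal1-/-, against 1.82 to 2.10 in line 1, and there the groups overlapped. The median over all 1 Mb windows was itself 0.10 higher in Bmal1-/- on this scale. The low windows' median difference was 0.32 and that of the contact windows 0.25. The gap between the classes differed by -0.053 on the log2 scale, with arrays of the 2 groups overlapping. When windows were ranked among chromosome 7 alone, the low windows averaged 26.7 and 24.7 in Bmal1-/-, against 17.8 to 20.7 in line 1, and the contact windows 77.3 and 77.8 in Bmal1-/-, against 72.8 to 74.4 in line 1. On that scale the gap differed by -3.35 (exact permutation test, two-sided p = 0.0952, the smallest possible). The Bmal1-/- arrays and line 1 at CT26 shared a style of array name. Against line 1 at CT26 alone the low windows were 8.29 points higher in Bmal1-/-.

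**Figure D3:**
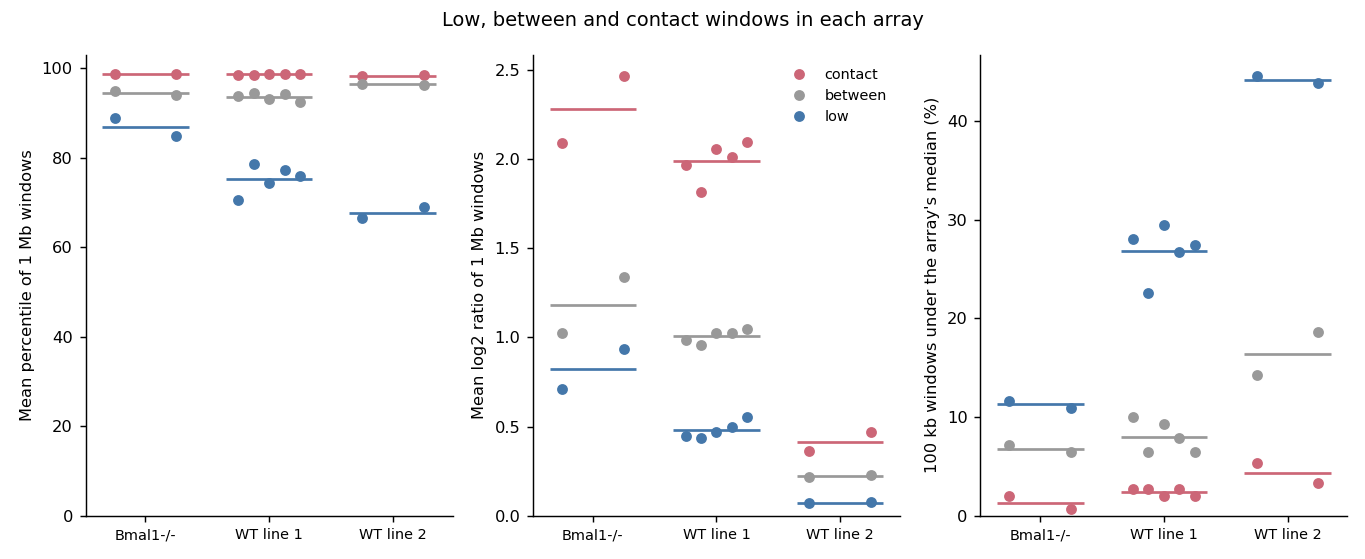
Values of low, between and contact windows in each array, as the mean percentile of 1 Mb windows (left), the mean log2 ratio of 1 Mb windows (middle) and the percentage of 100 kb windows under the array's median (right), for Bmal1-/- (CT22, CT34), WT line 1 (CT22, 26, 30, 34, 46) and WT line 2 (CT22, CT34). Points are arrays from early to late and bars are group means. The low windows of both Bmal1-/- arrays lie above all line 1 arrays on both scales and below them in the right panel.

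At 100 kb the same low windows held fewer stretches under the median of the array in Bmal1-/-. Of 146 such windows, 17 and 16 (11.64% and 10.96%) were under the median in Bmal1-/-, against 22.6% to 29.5% in line 1, and 44.5% and 43.8% in line 2. In the top 5% were 30.1% and 26.7% in Bmal1-/-, against 16.4% to 19.2% in line 1, and 9.59% and 15.1% in line 2. The groups did not overlap in either measure. Even the low windows of line 1 were thus under the genome's median less often than the 50% of windows that define it. Of 150 windows of 100 kb in the contact class, 138 were in the top 5% in both Bmal1-/- arrays, 124 in all 5 line 1 arrays and 72 in all 9 arrays. Of the low class, 29 were in the top 5% in both Bmal1-/- arrays and 13 in all 5 line 1 arrays. For all windows of the genome these shares were 3.59% and 2.65%. A call in all 5 arrays is harder to meet than a call in both of 2, which by itself lowers the line 1 counts. Array by array, 140 and 139 contact windows were in the top 5% in Bmal1-/-, against 131 to 133 in line 1. The low windows array by array are given above.

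Of the 5 low blocks, that from 93 to 97 Mb differed most in percentile between Bmal1-/- and line 1, by 18.3 points, and that from 59 to 61 Mb most in log2 ratio, by 0.61. From 93 to 97 Mb the mean percentile was 95.3 at CT22 and 94.4 at CT34 in Bmal1-/-, against 67.6, 79.8, 76.9, 75.6 and 83.3 in line 1 from CT22 to CT46, and 70.1 and 67.5 in line 2. Bmal1-/- averaged 94.9 ± 0.641 (SD, n = 2), against 76.6 ± 5.85 (SD, n = 5) for line 1. On the log2 scale the block had 0.90 and 1.25 in Bmal1-/-, against 0.52 to 0.79 in line 1. The median probe of this block was at the 72.6th and 79.2nd percentile of all probes in Bmal1-/-, against 58.8 to 66.4 in line 1, and the probe at the 90th percentile of the block was at 97.1 and 97.3 in Bmal1-/-, against 96.3 to 97.1 in line 1. High probes made up 19.8% and 23.5% in Bmal1-/-, against 16.3% to 19.3% in line 1. A probe percentile near 97 leaves little room for a higher one, so the differences at the middle and at the upper end of the block cannot be set against each other.

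Within this block, the first 2 windows carried the difference in percentile. The window from 94000001 to 95000000 had 95.4 and 94.6 in Bmal1-/-, against 48.0, 65.8, 63.6, 75.5 and 69.8 in line 1. The window from 93000001 to 94000000 had 92.1 and 89.3 in Bmal1-/-, against 29.7, 62.5, 50.9, 35.4 and 69.2 in line 1. No line 1 array reached a Bmal1-/- array in either. In line 2 the latter had 30.8 and 53.3, which made it one of the 3 lowest windows of the segment there. The windows from 95 to 96 and from 96 to 97 Mb were at 94.0 to 97.6 in all 7 arrays of Bmal1-/- and line 1, and the groups overlapped. On the log2 scale the former had 1.0537 and 1.317 in Bmal1-/-, against 0.633 to 1.0523 in line 1, just without overlap. The latter had 1.07 and 1.67 in Bmal1-/-, against 1.06 to 1.42 in line 1, with overlap.

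The low block from 85 to 89 Mb had 79.4 and 74.3 in Bmal1-/-, against 58.6, 63.8, 61.9, 68.2 and 58.9 in line 1 from CT22 to CT46, and 52.7 and 68.2 in line 2. At CT34, where line 1 was highest, the difference was 6.02 percentile points, and at CT22 it was 20.8. Of its windows, 3 separated the groups. The window from 85000001 to 86000000 had 82.6 and 69.7 in Bmal1-/-, against 33.8 to 61.8 in line 1, and that from 87000001 to 88000000 had 86.3 and 77.3 in Bmal1-/-, against 50.8 to 70.8 in line 1. The window from 88000001 to 89000000 had 96.6 and 95.8 in Bmal1-/-, against 88.7 to 93.4 in line 1. The window between them, from 86000001 to 87000000, was the lowest of the segment in line 2, with 50.1 and 20.3. It had 52.0 and 54.2 in Bmal1-/-, inside the range of 40.4 to 68.6 in line 1.

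The low block from 59 to 61 Mb was high in rank in 2 of the 3 lines. It had 96.9 and 96.3 in Bmal1-/-, against 90.4 to 94.3 in line 1, and 67.4 and 62.2 in line 2. Its median probe was at 80.3 and 78.3 in Bmal1-/-, against 58.1 to 63.0 in line 1. The window from 60000001 to 61000000 carried this, with 97.3 and 96.6 in Bmal1-/-, against 85.4 to 92.3 in line 1. The next window, from 61000001 to 62000000, is a between window, and had 97.8 and 97.5 in Bmal1-/-, against 92.8 to 95.7 in line 1.

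The low block from 76 to 78 Mb had 78.9 and 66.9 in Bmal1-/-, against 46.9 to 71.4 in line 1, so the groups overlapped there. Its windows differed from each other. The window from 77000001 to 78000000 had 90.04 and 85.7 in Bmal1-/-, against 40.9 to 73.7 in line 1, and 94.9 and 95.5 in line 2. The window from 76000001 to 77000000 had 67.8 and 48.0 in Bmal1-/-, within the 41.9 to 69.1 of line 1, and with 40.1 and 32.6 it was among the 3 lowest in line 2.

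**Figure D4:**
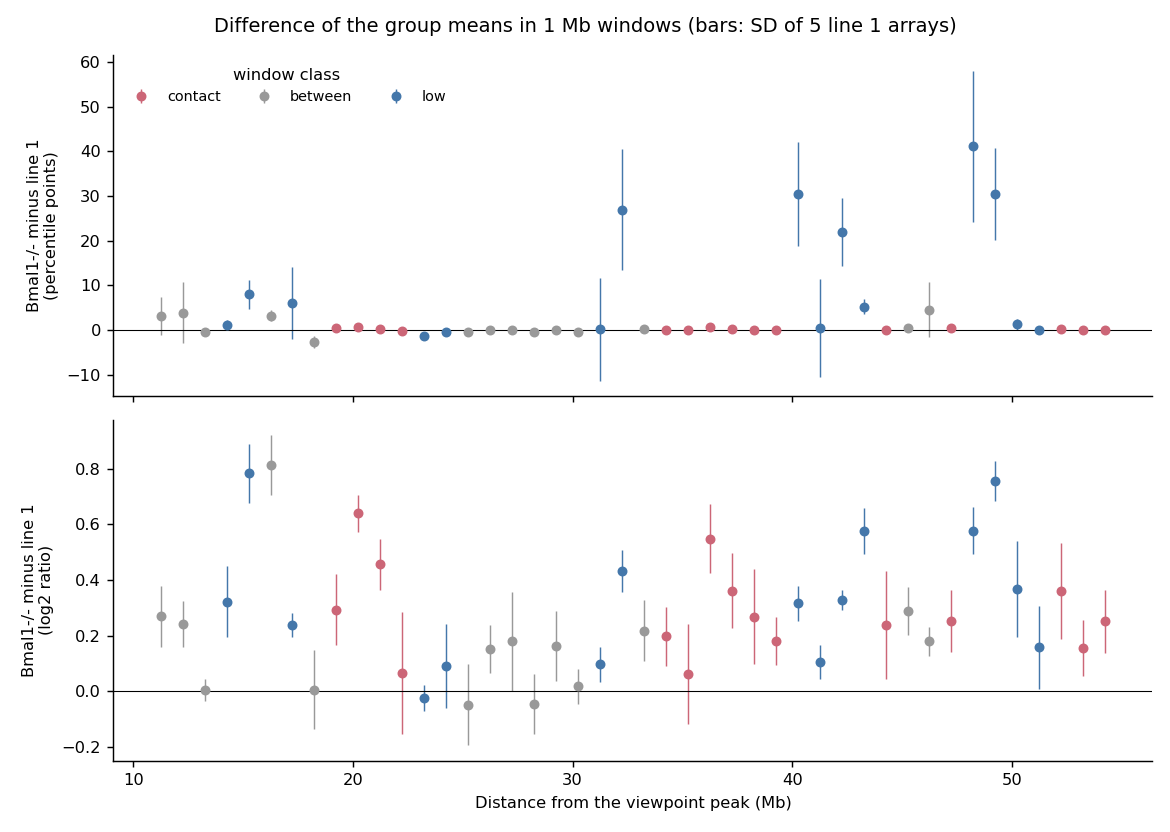
Bmal1-/- mean (2 arrays) minus WT line 1 mean (5 arrays) of each 1 Mb window, in percentile points (top) and as log2 ratio (bottom), against the distance from the viewpoint peak in Mb (x axis). Colours give the window class, and bars are 1 SD of the 5 line 1 arrays. In percentile points the differences over 20 are all in low windows, whereas on the log2 scale windows of every class are higher in Bmal1-/-.

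Counted over windows, both Bmal1-/- arrays were above all 5 line 1 arrays in 16 of the 44 windows of 1 Mb (36.4%), against 10.3% of all windows, and below them in 2 (4.55%), against 10.6%. The 16 comprised 7 of 15 low, 1 of 14 between and 8 of 15 contact windows. The 2 were the low window from 68000001 to 69000000 and the between window from 63000001 to 64000000. The median difference was 5.28 percentile points in low windows, 0.0158 in between windows and 0.106 in contact windows, against 0.00789 over all windows. In windows of 100 kb, Bmal1-/- was above line 1 in 78 of 443 (17.6%), against 5.03% of all windows, and below it in 15 (3.39%), against 7.97%. Of these 78 windows, 40 were in the low class of 146 and 29 in the contact class of 150.

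A small set of 100 kb windows was in the top 5% in Bmal1-/- but not in line 1. In 7 of 443 (1.58%) both Bmal1-/- arrays were in the top 5% and all 5 line 1 arrays were not, against 0.0922% of all windows, which is 23 in the genome. However, 230 windows of the segment (51.9%) were in the top 5% of both Bmal1-/- arrays, against 897 (3.59%) in the genome. The 7 came from these 230 and the 23 from these 897, so the share over all windows overstates how far the segment stands apart. Of these 7, 4 were low windows, 1 was a between and 2 were contact windows. In line 2, 2 of the 7 were in the top 5% of both arrays, 2 in that of 1 array and 3 in that of neither. The reverse held for 1 window of the segment, a between window, and for no other window of the genome (0.00401%). It asks for 5 arrays in the top 5% and 2 under it, a stricter call than 2 in it and 5 under. The 2 counts therefore cannot be set against each other. Among the 7, chosen here after their values were seen, the window from 60800001 to 60900000 had 96.3 and 97.7 in Bmal1-/-, against 26.7 to 92.8 in line 1, and 95.4 and 32.0 in line 2.

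No window passed the test of Bmal1-/- against line 1. With limma on normal scores of the ranks and Benjamini-Hochberg adjustment, 0 of 2536 windows of 1 Mb and 0 of 24953 windows of 100 kb had an adjusted p under 0.05. Without the Bmal1-/- array at CT34, 85 windows of 1 Mb were called (11 higher and 74 lower in Bmal1-/-), 0 of them in the segment. At an unadjusted p under 0.05, 8 of the 44 windows of the segment were higher in Bmal1-/- (18.2%, against 7.61% of all windows) and 0 were lower (against 10.3%), and 7 of the 8 were low windows. The 8 became 3 without the Bmal1-/- array at CT22 (against 2.8% of all windows), 3 with array name style as a term (against 6.43%) and 4 with circadian time as a replicate block (against 5.05%). At 100 kb, 25 were higher (5.64%, against 3.33%) and 3 lower (0.677%, against 4.62%), and without the Bmal1-/- array at CT22 there were 13 higher (against 1.76%) and 1 lower. The window from 94000001 to 95000000 had the smallest adjusted p of the segment, with a score difference of 1.26 ± 0.198 (SE) and an adjusted p of 0.116 (limma). For the window from 93000001 to 94000000 these were 1.34 ± 0.291 and 0.133 (limma), and for that from 60000001 to 61000000 they were 0.64 ± 0.151 and 0.133. The windows from 87000001 and from 85000001 followed, with score differences of 0.67 and 0.84 and adjusted p of 0.143 and 0.1496 (limma).

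The number of windows that passed differed with the scale of the values and with limma's variance model. All calls inside the segment were higher in Bmal1-/-, while some calls elsewhere were lower. On median-centred log2 ratios limma called 14 of the 44 windows (31.8%, against 9.46% of all windows higher and 0 lower). On quantile-normalized ratios it called 9 (20.5%, against 0.631% of all windows higher and 0.158% lower). Ranking among chromosome 7 alone gave 7 calls (15.9%, against 6.57% of 137 windows higher and 2.19% lower). With limma's trend and robust options on the main ranks there were 8 (18.2%, against 0.907% higher and 0.868% lower). The windows from 60000001, 61000001, 65000001, 66000001, 88000001 and 94000001 passed under all 4 of these. They comprise 3 low, 1 between and 2 contact windows. For the window from 94000001 the log2 difference was 0.76 ± 0.0772 (SE), with ratios of 0.81 and 1.09 in Bmal1-/- and a mean of 0.19 ± 0.0715 (SD, n = 5) in line 1 (limma, adjusted p = 0.00479). With window medians in place of means 1 window passed (against 0.158% of all windows higher and 0.0789% lower), that from 94000001. With circadian time as a replicate block, at CT22 and CT34 only, 0 windows passed, and with array name style as a term 0 passed.

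The 5 windows of 100 kb of smallest p in the low class lay in the blocks from 76 and from 93 Mb, all higher in Bmal1-/- with a limma adjusted p of 0.579. The window from 94800001 to 94900000 (17 probes) had 97.1 and 96.4 in Bmal1-/-, against 51.2, 65.9, 44.7, 67.7 and 66.4 in line 1 and 14.5 and 16.6 in line 2. The window from 77300001 to 77400000 (12 probes) had 94.0 and 77.5 in Bmal1-/-, against 12.2 to 60.0 in line 1. In the remaining 3, starting at 93100001, 93600001 and 94700001, Bmal1-/- lay between 73.9 and 93.5 and line 1 between 9.18 and 68.9. The window from 94800001 was the only one of 24953 called on median-centred log2 ratios (0.00401%), with an adjusted p of 0.0331 (limma), and likewise on quantile-normalized ratios, with 0.0449. The ranked share of high probes gave 1 call in the segment (against 0.393% of all windows higher and 0.0842% lower), from 85600001 to 85700000. Its 11 probes held 18.2% and 9.09% high probes in Bmal1-/-, against 0% in every line 1 array and 9.09% and 18.2% in line 2 (limma, adjusted p = 0.0223).

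In the contact class the 5 windows of smallest p included both directions, with limma adjusted p of 0.579 to 0.660. The window from 84900001 to 85000000, the last of the contact block from 79 Mb, had 55.1 and 85.3 in Bmal1-/-, against 5.19 to 39.1 in line 1. The window from 92900001 to 93000000, next to the low block from 93 Mb, had 89.3 and 74.7 in Bmal1-/-, against 30.0 to 65.4 in line 1. Both thus sit at the edge of a low block and have low values themselves. The window from 64300001 to 64400000 was lower in Bmal1-/-, with 15.2 and 52.9, against 43.9 to 93.9 in line 1, and those groups overlap. The windows from 64800001 and 64900001 were at 95.3 to 98.8 in Bmal1-/- and at 75.3 to 95.1 in line 1.

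Signal inside low blocks was not uniform. The 3 windows of 100 kb that ranked highest in line 2 inside low blocks started at 95900001, 85000001 and 68600001. The first had 96.4 and 98.5 in Bmal1-/-, 96.1 to 98.1 in line 1 and 98.9 and 98.6 in line 2, and it is one of 2 low-class windows in the top 5% of all 9 arrays. The other one starts at 96100001. The window from 68600001 had 95.8 and 93.1 in Bmal1-/-, 94.4 to 96.6 in line 1 and 98.9 and 97.6 in line 2. The window from 85000001 rests on 7 probes and spread from 33.5 to 96.7 in line 1, with 89.8 and 92.9 in Bmal1-/-.

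No window passed the test of circadian time. In limma on CT34 against CT22 over both WT lines, 0 of 2536 windows of 1 Mb and 0 of 24953 of 100 kb passed. This fit had no term for line, so differences between the 2 lines add to its spread and make it strict. At an unadjusted p under 0.05 there were 0 of the 44 windows of the segment (against 0.868% of all windows) and 12 of its 443 windows of 100 kb (2.71%, against 0.93%). Of these 12, 5 were higher and 7 lower at CT34. Single arrays moved this count and its balance: it was 32 (24 higher, 8 lower) without line 1 at CT22 (against 2.14%), 29 (7 higher, 22 lower) without line 1 at CT34 (against 1.7%) and 6 (1 higher, 5 lower) without line 2 at CT22 (against 2.2%). With line as a replicate block it was 35 (16 higher, 19 lower, against 4.8%), and 0 windows passed after adjustment at either window size. Without line 1 at CT34, 1 window of 1 Mb passed, which lies outside the segment. The 3 windows of 1 Mb of smallest p were those from 88000001, 85000001 and 93000001, all low windows, with score differences of 0.65, 0.52 and 0.37 (limma, adjusted p = 1). The window from 88000001 had 91.7 and 92.8 at CT34 in lines 1 and 2, against 88.7 and 62.7 at CT22. At 100 kb they started at 60000001, 85300001 and 94500001, with score differences of -2.71, 2.65 and -2.27 (limma, adjusted p = 1) and 6, 6 and 11 probes. The first had 10.2 and 26.7 at CT34 in lines 1 and 2, against 91.5 and 98.5 at CT22, and in Bmal1-/- it went the other way, with 86.6 at CT34 and 16.1 at CT22. That difference between the genotypes was not tested.

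Over the 5 times of line 1, the median SD of a 1 Mb window was 7.58 percentile points in low windows, 0.388 in between windows and 0.125 in contact windows. On the log2 scale the order was the reverse, with median SDs of 0.076 in low, 0.11 in between and 0.12 in contact windows. For CT34 minus CT22 the median difference in low windows was -0.789 in Bmal1-/-, 2.33 in line 1 and 0.591 in line 2. The low windows were higher at CT34 in 3 of 15 in Bmal1-/-, 9 of 15 in line 1 and 8 of 15 in line 2. With 1 array per time in each line, none of these changes has a replicate within the line.

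Set against the chromosome 7 windows beyond 100 Mb (46 windows of 1 Mb, 6972 probes), the segment stood higher in Bmal1-/- and lower in both WT lines. The segment averaged 93.3 ± 1.17 (SD, n = 2) in Bmal1-/- and the distal windows 90.5 ± 0.110, so that the segment was higher by 3.72 percentile points at CT22 and by 1.90 at CT34. In line 1 the segment averaged 89.0 ± 1.17 and the distal windows 92.4 ± 0.792 (SD, n = 5), with differences of -3.97 to -2.89. In line 2 the differences were -4.59 and -5.17. In percentiles of 1 Mb windows, the segment was higher and the distal windows lower in both Bmal1-/- arrays than in all line 1 arrays. The distal windows had 90.4 and 90.6 in Bmal1-/-, against 91.4 to 93.3 in line 1. In percentiles of 100 kb windows the groups overlapped there, with 82.3 and 83.5 in Bmal1-/- against 83.3 to 86.8 in line 1. On the log2 scale the distal windows overlapped too, with 1.22 and 1.55 in Bmal1-/- against 1.24 to 1.38 in line 1. Over all 9 arrays the mean difference was -2.30, lower in 7 of 9 arrays (exact sign-flip test, two-sided p = 0.0547), in which arrays of one line are not independent. It was -3.05 without the Bmal1-/- array at CT22 (exact p = 0.0156), -2.83 without that at CT34 (exact p = 0.0391), and -0.0802 on the log2 scale (exact p = 0.0391). In 100 kb windows it was -0.661 (exact p = 0.527), and without any 1 of the 7 WT arrays it was -2.23 to -1.94 (exact p of 0.0938 to 0.102).

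**Figure D5:**
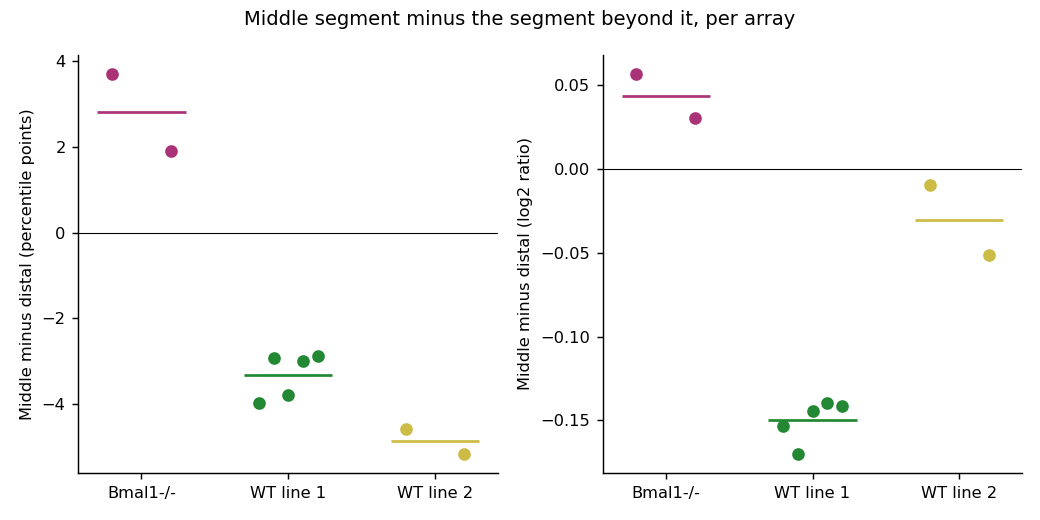
Segment mean minus the mean of the chromosome 7 windows beyond 100 Mb in each array (y axis), in percentile points (left) and as log2 ratio (right), for Bmal1-/-, WT line 1 and WT line 2 (x axis). Points are arrays from early to late and bars are group means. Both Bmal1-/- arrays lie above 0 and all 7 WT arrays below it on both scales.

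Against the centromere-proximal windows at least 10 Mb from the viewpoint (26 windows of 1 Mb, 2784 probes), the segment was lower in all 9 arrays. The mean difference was -6.46 percentile points (exact sign-flip test, two-sided p = 0.00391, the smallest that 9 arrays can give). That test takes the 9 arrays as independent, which arrays of one line are not. It was -2.33 and -3.60 in Bmal1-/-, -7.63 to -5.93 in line 1 and -9.67 and -8.40 in line 2. The centromere-proximal windows themselves averaged 96.3 ± 0.270 in Bmal1-/- (SD, n = 2), 95.9 ± 0.752 in line 1 (SD, n = 5) and 96.3 ± 0.329 in line 2 (SD, n = 2). In percentiles they thus differed less between the lines than the segment did, but near the top of the ranks there is little room to differ. On the log2 scale they had 1.58 and 1.87 in Bmal1-/-, 1.51 to 1.73 in line 1 and 0.404 and 0.477 in line 2. The segment had 1.28 and 1.58, 1.07 to 1.24, and 0.216 and 0.259 in the same lines. On that scale line 2 stood well below the other lines in both parts.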

How the data were processed

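The authors deposited 1 log2 ratio per probe of 59 nt, Cy5 (4C DNA) over Cy3 (genomic DNA), written by NimbleScan and shifted by the authors by each array's biweight mean, per the file headers. The log base follows NimbleScan's convention. The sources used here give no background correction, filter or genome build. Each sample is 1 array, without repeat or dye swap, and nothing in the labels gives more than 1 culture per time, so p-values measure the spread between arrays.

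After median centring of each array, means were taken over windows of 100 kb (at least 5 probes) and 1 Mb (at least 20), and windows were ranked within each array. Normal scores of the ranks were tested with limma 3.58.1 in R 4.3.3 (two-sided, Benjamini-Hochberg over all windows at 0.05), a step tested on simulated data. Single values per array were compared by exact permutation or sign-flip tests in Python 3.11.15. Replicate numbers stand for circadian times in Bmal1-/- and line 1, and the fit with time as a block was an alternative. Leaving arrays out, other scales, window summaries, probe minimums and ways to choose the classes were the others. The segment and window classes were chosen with earlier results of these data known. Windows named are the blocks, the extremes of line 2, the smallest p of each comparison and, in low blocks, the highest of line 2.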

Additional observations from a re-analysis of the deposited data

Results flagged for a closer look

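Both Bmal1-/- arrays and all 5 line 1 arrays moved in opposite directions when the segment was set against the chromosome 7 windows beyond 100 Mb. In percentiles of 1 Mb windows the segment was higher by 2.81 points on average in Bmal1-/-, and lower in every line 1 array. The same opposition was measured in 100 kb windows, with a Bmal1-/- mean of 4.39 points, on median-centred log2 ratios, with 0.0438, and in percentiles among chromosome 7 alone, with 1.90. In line 2, 1 array was above 0 in percentiles among chromosome 7 alone. The difference between the groups was not tested. No single array stood apart from the others of line 1 in the 30 sets of line 1 values that were checked for it.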

How the results depend on the processing

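The low windows were higher in Bmal1-/- under each alternative run. The difference was 9.43 to 13.5 percentile points when arrays were left out in turn, and 13.2 with 11 windows a class. With classes from line 1 at CT26, CT30 and CT46 or from all lines it was 12.1 and 12.2. Both choices used arrays that were also compared, so these values are not independent of the choice of windows. With classes from those 3 line 1 times and values from CT22 and CT34 only, the difference was 12.9. That alternative, like the one against CT26 alone, was chosen after seeing the data. In the segment limma called 14 windows of 1 Mb on median-centred log2 ratios, 9 on quantile-normalized ratios, 7 ranked on chromosome 7 only, 8 with the trend and robust options and 1 with window medians, where the main fit on ranks called 0; at 100 kb, log2 ratios, quantile-normalized ratios and the ranked share of high probes called 1 each. The replicate block on circadian time, line 2 added, name style, a higher probe minimum and each array left out called 0 in the segment at both sizes. Circadian time gave 0 calls in the segment under each alternative, line as a replicate block included. Against the windows beyond 100 Mb the difference was -0.661 points in 100 kb windows (exact p = 0.527), -0.0802 on the log2 scale (exact p = 0.0391), and -3.05 to -1.94 percentile points with arrays left out, past the threshold without Bmal1-/- at CT22 (-3.05) or at CT34 (-2.83). The window from 84900001 turned to -0.312 in the ranked share of high probes. The cause of these shifts was not tested. For Bmal1-/- against line 1, changes of 0.5 and 1 on the log2 scale were put into simulated windows. In 1 Mb windows limma recovered 82% and 95% of them, and in 100 kb windows 24% and 50%. All simulated arrays were drawn around the line 1 window means with independent noise, without the real differences in scale between arrays. These shares therefore do not give the power of the real comparison.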
